A study of Mus musculus with 9 samples.

Results

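Transcript clusters that the platform annotation assigns to 2 or more different gene symbols are described here. A transcript cluster is the group of probes that this array summarises into 1 value, and a cluster with several symbols reads out genes that cannot be told apart by it. The annotation gave 2 or more different symbols to 1613 of the 35557 rows of the table, against 21797 rows with 1 symbol and 12147 rows that it did not list. Each of the 1613 rows was used once and is named by its symbols. Where a row has many, the first symbols are given with the number of further ones.

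The arrays came from C57BL/6 mouse cells in 3 groups of 3: adult cardiac fibroblasts, fibroblasts that had undergone dedifferentiation by a protein-based procedure, and C57 embryonic stem (ES) cells. The fibroblast source label also mentions ES cells, and the sample titles were followed. The labels do not say whether the 3 arrays of a group are separate animals or cultures, so p-values measure only the spread between these arrays. Of 8 fibroblast marker genes with a row of their own, 8 were higher on the fibroblast arrays than on both other groups, and 8 of 8 pluripotency markers were lower there. None of 6 cardiomyocyte markers differed by 1 log2 unit between groups, though smaller differences passed limma's test (Tnnt2 -0.80 and Actc1 0.54 in dedifferentiated cells against fibroblasts, adjusted p = 0.0077 and 0.00039).

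Gene families arise when a gene is copied. Copies that stay nearly identical share probe sequence, as do a gene and its processed pseudogenes, which are inserted copies of its mRNA. Small RNAs lie inside the introns or exons of host genes and share their loci. Many such families are active in particular settings: interferon-inducible GTPases and MHC class I genes in immune defence, replication-dependent histones in DNA synthesis, and Y-linked Ssty genes and Pramel genes in the germ line or early embryo.

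The 1613 rows carried 2016 symbols in 790 different symbol sets. A set had 1 row in 503 cases and 2 or more rows in 287 cases, with up to 24 rows. The number of symbols per row ran from 2 to 20 with a median of 3. 717 rows had exactly 2, and 157 had 10 or more. A gene-model name (such as a Gm number) was among the symbols of 803 rows. The values of 259 rows repeated those of another member row on all 9 arrays, which left 1447 distinct profiles, so rows are not independent measurements. 24.0% of the rows had a mean log2 level of at least 10 over all arrays, against 3.36% of rows with 1 symbol. The share with at least 1 group mean of 6 or more was 49.0% against 48.5%.

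Promoter sequence is shown first, because the genes that share a row need not share the DNA before their start sites. Reference windows of 300 bases from RefSeq (GRCm38.p6), 250 before and 50 after a start site, were available for 1417 genes of these rows. Among sets of 2 symbols, both genes had a window in 214 of 432 cases, and the windows of a pair were at least 41.1% identical, with a median of 52.2%. The 8 sequences below are 90-base stretches before the start sites of 4 pairs whose shared row was lower in dedifferentiated and ES cells than in fibroblasts. Capitals mark GAAA, any 2 bases and GAAA again, the spacing of an interferon-stimulated response element, on either strand, with overlapping matches run together. All are written along the gene's own strand.

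Tgtp1, chr11:48992279-48992368, minus strand: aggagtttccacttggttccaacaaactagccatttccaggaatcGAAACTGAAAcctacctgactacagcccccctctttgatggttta
Tgtp2, chr11:49064238-49064327, minus strand: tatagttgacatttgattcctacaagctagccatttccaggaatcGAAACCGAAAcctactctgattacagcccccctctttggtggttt
Apol9a, chr15:77411089-77411178, minus strand: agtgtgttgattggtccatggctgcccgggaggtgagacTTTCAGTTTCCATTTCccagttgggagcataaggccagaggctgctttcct
Apol9b, chr15:77728982-77729071, plus strand: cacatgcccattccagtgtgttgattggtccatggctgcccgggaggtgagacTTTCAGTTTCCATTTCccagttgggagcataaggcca
Oas1a, chr5:120907526-120907615, minus strand: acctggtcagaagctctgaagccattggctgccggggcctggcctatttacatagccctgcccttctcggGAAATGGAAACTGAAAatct
Oas1g, chr5:120887614-120887703, minus strand: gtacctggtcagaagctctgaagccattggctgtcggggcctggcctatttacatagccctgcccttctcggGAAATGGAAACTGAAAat
Gbp2, chr3:142620559-142620648, plus strand: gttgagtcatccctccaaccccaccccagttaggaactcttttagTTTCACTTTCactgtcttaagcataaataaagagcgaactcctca
Gbp2b, chr3:142594665-142594754, plus strand: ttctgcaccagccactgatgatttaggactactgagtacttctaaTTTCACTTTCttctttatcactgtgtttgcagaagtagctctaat

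The whole windows were 69.7% identical between Tgtp1 and Tgtp2, 85.3% between Oas1a and Oas1g, 49.7% between Apol9a and Apol9b and 50.8% between Gbp2 and Gbp2b. In the Apol9a and Apol9b stretches the capitals and the bases around them read the same but lie at different distances from the annotated start. Isg15, which shares a row with Gm9706, had 3 overlapping matches, in the stretch below.

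Isg15, chr4:156200840-156200929, minus strand: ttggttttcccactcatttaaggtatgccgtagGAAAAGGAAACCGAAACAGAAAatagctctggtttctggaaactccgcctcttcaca

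This motif lay in the windows of 3.99% of the 27025 genes in the table and of 7.13% of the genes of these rows. Among the 66 genes with a window in rows that were lower in dedifferentiated cells than in fibroblasts it lay in 21, or 31.8%. Among the 215 genes of rows that were higher it lay in 9, or 4.19%, and among the 1221 genes of rows called in neither direction in 76, or 6.22%. In the list of interferon-inducible families, called or not, it lay in 21 of 25 genes with a window, 84.0%. Related genes that share a row, such as Tgtp1 and Tgtp2, count as separate genes in all these numbers. Whether the motif goes with the falls or with the gene families was not tested. A match is a description of these letters in this window, not a binding site.

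Promoter stretches of an H4 and an H3 histone gene that hold a CCAAT match are shown. Capitals mark CCAAT, and TATAAA, on either strand.

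H4c1, chr13:23761253-23761342, minus strand: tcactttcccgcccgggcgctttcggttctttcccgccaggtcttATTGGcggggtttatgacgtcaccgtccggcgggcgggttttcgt
H3c2, chr13:23752249-23752338, plus strand: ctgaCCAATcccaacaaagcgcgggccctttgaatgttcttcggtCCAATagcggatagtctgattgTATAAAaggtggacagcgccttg

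CCAAT was in the windows of 45 of 53 histone genes, 84.9%, against 41.1% of all genes. TATAAA was in 31 of the 53, 58.5%, against 15.7%.

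Setting dedifferentiated cells against fibroblasts asks which shared rows differed between these groups. Xist and Eif2s3y differed between them too, as given below, so sex of the cells and group cannot be told apart here. A row was called when the limma adjusted p over all rows was under 0.05 and the groups differed by at least 1 log2 unit. By this rule 241 of the 1613 rows were higher and 56 lower, 18.4% in all. Over all 35557 rows 15.2% were called, 8.59% higher and 6.58% lower, against 14.9% higher and 3.47% lower among member rows. The median difference was 0.29 log2 units over the member rows, 0.038 over all rows and 0.01 over rows with 1 symbol. With each profile counted once, 201 were higher and 54 lower of 1447. Leaving out rows whose placed genes all lie on the Y chromosome gave 197 higher and 56 lower. The arrays of the groups did not overlap in 67.3% of member rows and 47.4% of all rows.

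For ES cells against the same fibroblast arrays, 165 member rows were higher and 63 lower, 14.1%, against 15.1% of all rows (8.16% higher and 6.93% lower). The median difference was 0.133 log2 units, and 0.05 over all rows. Without the Y-linked rows 154 were higher and 63 lower. Both comparisons use the same fibroblast arrays, so their values are given side by side and not as support for each other.

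Dedifferentiated against ES cells asks where dedifferentiated cells differed from the pluripotent line. There 72 member rows were higher in dedifferentiated cells and 4 lower, 4.71%, against 1.78% of all rows (1.25% higher and 0.534% lower) and 1.64% of rows with 1 symbol. This count of higher rows depended on single arrays: it was 23 without dedifferentiated array 1, 20 without dedifferentiated array 3, 41 without ES array 1, 32 without ES array 3, and 107 without dedifferentiated array 2.

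**Figure D1:**
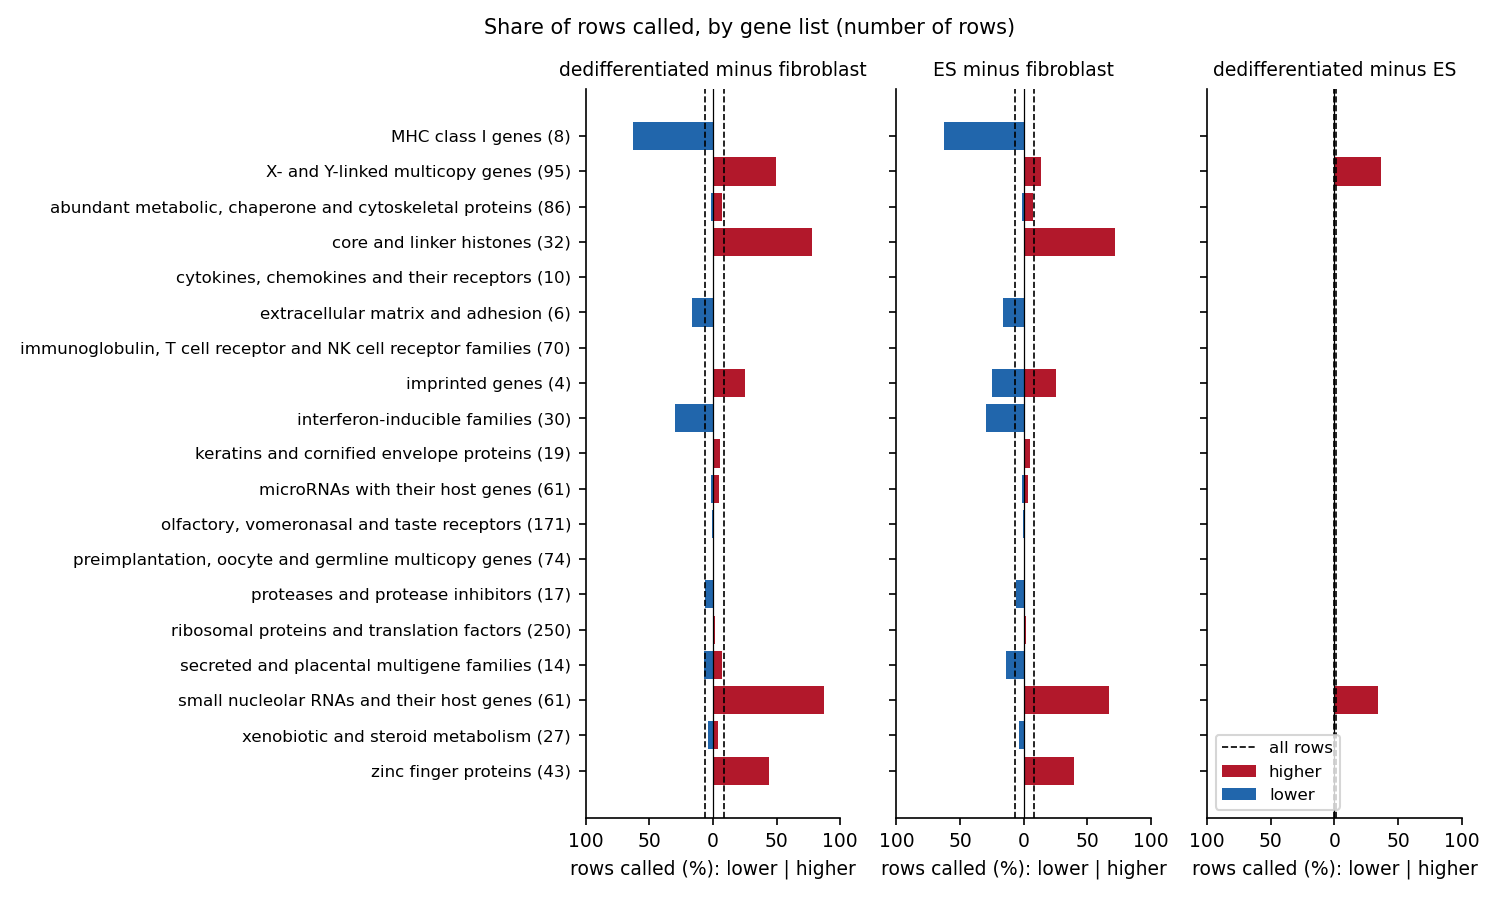
Share of rows called higher (right, red) or lower (left, blue), in percent of the rows of each gene list, for the 3 comparisons. Dashed lines give the shares over all rows of the table. Histone, snoRNA and X- and Y-linked lists reach right of the line in dedifferentiated cells, and MHC class I and interferon-inducible lists reach left of it.

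Immune defence genes were among the largest falls. Of 30 rows of interferon-inducible families 9 fell in dedifferentiated cells, 9 fell in ES cells, and 0 were higher in either. The 30 rows had 13 symbol sets, and 8 of the sets held a fallen row in each comparison. The median difference of the list was -0.36 and -0.55 log2 units. Of 8 MHC class I rows 5 fell in both comparisons, with medians of -2.0 and -2.04. Among rows with 1 symbol, 29 of 78 interferon-inducible rows fell in dedifferentiated cells and 30 in ES cells, while 3 were higher in each. Of 30 MHC class I rows with 1 symbol 2 and 3 fell, with a median of -0.03 in both. Between dedifferentiated and ES cells none of the 30 interferon-inducible and 8 MHC class I rows with several symbols was called. Without dedifferentiated array 2, 3 of the 30 were higher in dedifferentiated cells against fibroblasts and 3 against ES cells, and 1 was higher against fibroblasts without dedifferentiated array 1 or fibroblast array 1 and against ES cells without ES array 1.

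Ifi211 and Ifi204, which encode interferon-inducible DNA-binding proteins, share a row that read 9.25, 8.87 and 8.98 on the fibroblast arrays, 3.37, 3.34 and 3.21 on the dedifferentiated arrays and 3.25, 3.10 and 2.88 on the ES arrays. The fibroblast arrays stood apart from the other 6. The row fell by 5.73 log2 units in dedifferentiated cells (95% interval -6.01 to -5.44, limma adjusted p = 3.7e-09) and by 5.95 in ES cells (adjusted p = 2.8e-09). Isg15, a ubiquitin-like protein attached to other proteins after interferon signalling, shares a row with Gm9706. It read 7.62, 7.23 and 7.57 in fibroblasts, 3.95, 4.32 and 3.97 in dedifferentiated cells and 4.19, 3.91 and 3.70 in ES cells, a fall of 3.40 (limma adjusted p = 3.6e-07) and of 3.54 (adjusted p = 2.6e-07). Dedifferentiated and ES arrays overlapped each other and not the fibroblasts.

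Among the GTPases that act on vacuoles of intracellular pathogens, Irgm2/Igtp fell by 2.69 and 2.86 log2 units (dedifferentiated, then ES cells), Gbp2/Gbp2b by 2.42 and 2.35, and the Gbp11/Gbp10 row by 1.49 and 1.94. Both rows of Tgtp2/Tgtp1, whose promoters are shown above, fell, by 2.33 and 2.47 in dedifferentiated cells and by 2.93 and 2.96 in ES cells. Oas1a/Oas1g, synthetases that activate RNA degradation in infected cells, fell by 2.44 and 2.65. Olfr56/Ifi47 pairs an olfactory receptor with an interferon-inducible GTPase at 1 locus. It read 5.43, 5.04 and 5.53 in fibroblasts and 3.02 to 3.36 on the other 6 arrays, and it was the olfactory receptor list's 1 called row of 171.

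The classical class I genes H2-D1 and H2-K1, which present peptides to T cells, share 2 rows with LOC547349. The row named first by H2-D1 read 10.72, 10.75 and 10.88 in fibroblasts, 7.31, 7.48 and 7.40 in dedifferentiated cells and 6.78, 6.97 and 7.03 in ES cells. It fell by 3.38 (95% interval -3.59 to -3.18, limma adjusted p = 1.1e-08) and by 3.86 log2 units (adjusted p = 4.8e-09). The dedifferentiated arrays all lay above the ES arrays, by 0.47 (adjusted p = 0.01), under the 1 log2 unit that a call needs. The row named first by H2-K1 fell by 2.66 and 2.91. Of the non-classical genes, H2-T9/H2-T22/H2-T10 fell by 3.31 and 3.19, H2-T-ps/H2-T23 by 2.91 and 3.02, and H2-Q6/H2-Q8 by 1.35 and 1.18.

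Some rows outside these 2 lists belong to genes also known as interferon-inducible, and they are named after their values were seen or by their size. The Gvin1 row (with Gm4070 and 3 more symbols), for a very large interferon-inducible GTPase, read 8.53, 7.59 and 8.36 in fibroblasts and 2.61 to 2.86 on all other arrays. It fell by 5.42 and 5.40 log2 units, and its other row by 4.97 and 4.98. Apol9a/Apol9b, apolipoprotein L family genes, read 8.23, 8.31 and 8.12, then 4.35, 4.48 and 4.46, then 4.33, 3.91 and 3.50. They fell by 3.79 (95% interval -4.20 to -3.38, limma adjusted p = 3.4e-07) and 4.31 log2 units. The restriction-factor row Trim5/Trim12c fell by 2.10 and 2.50, and Trim5/Trim12c/Trim12a by 1.92 and 2.51.

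Markers of macrophages did not move as 1 group. Of 7 macrophage markers measured by a row of their own, 3 (Lyz2, C1qa and C1qb) fell and 1 (Cd68) was higher in both comparisons. Ptprc, Csf1r and Adgre1 differed by -0.83, -0.57 and -0.90 in dedifferentiated cells and by -0.67, -0.43 and -0.93 in ES cells. None of these was called. Lyz2 had the largest fall, 5.65 and 5.52, and weighs most in the change of the mean. The mean of the 7 was 5.87 to 6.11 on the fibroblast arrays, 4.40 to 4.43 on the dedifferentiated arrays and 4.56 to 4.64 on the ES arrays. Their part in the falls was not tested. In whole-culture RNA, fewer cells of a type and less RNA per cell cannot be told apart.

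**Figure D2:**
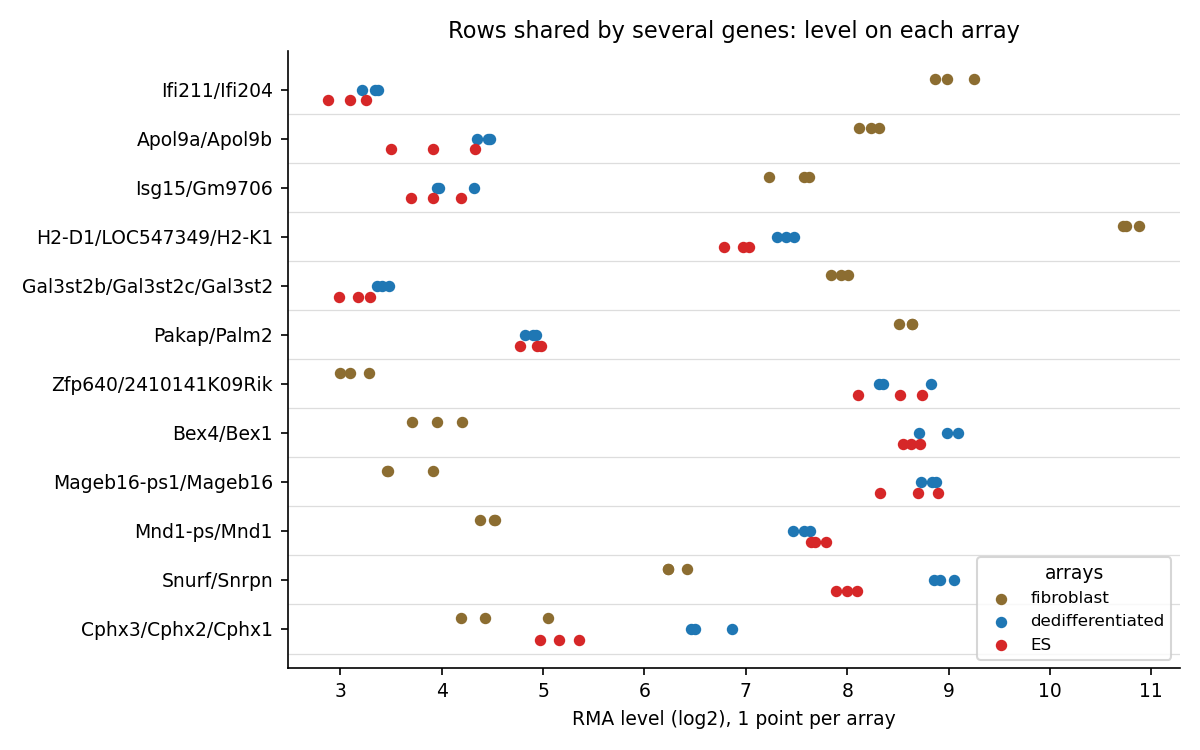
RMA level in log2 (horizontal axis) of 12 rows that several genes share, 1 point per array, coloured by group. The upper 6 rows fell from fibroblasts (7.23 to 10.88 in fibroblasts) to dedifferentiated and ES cells, the next 5 were higher there, and Cphx3/Cphx2/Cphx1 was highest in dedifferentiated cells.

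Other falls concerned secretion, matrix and complement. Gal3st2b/Gal3st2c/Gal3st2, sulfotransferases that act on galactose in glycans, had 2 rows. The first read 7.94, 7.84 and 8.01 in fibroblasts, 3.36, 3.41 and 3.48 in dedifferentiated cells and 3.29, 2.99 and 3.17 in ES cells. It fell by 4.52 log2 units (limma adjusted p = 2.9e-09) and by 4.78. The second fell by 4.91 and 4.94. Pakap/Palm2 covers a locus that makes a protein kinase A anchoring protein and a lipid-anchored membrane protein. It read 8.64, 8.51 and 8.64 in fibroblasts and 4.77 to 4.98 elsewhere, falls of 3.72 (95% interval -3.90 to -3.53, limma adjusted p = 3.9e-09) and 3.70, and the neighbouring Pakap/Akap2 row fell by 2.65 and 2.39.

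C1rb/C1ra, proteases that start the complement cascade, fell by 3.11 and 3.41 log2 units. Gm21451/Loxl2, with a lysyl oxidase that cross-links collagen, fell by 2.02 and 2.76. All of its dedifferentiated arrays read 8.84. The 3 Plac9 rows fell by 2.35 to 2.37 and by 2.82 to 2.83, and Rnase4/Ang, ribonucleases from 1 locus, by 1.78 and 2.26. Ly6c2/Ly6c1, surface proteins also found on myeloid and endothelial cells, fell by 1.66 and 2.36 in 1 row, while the other row was called in ES cells (-1.40) and not in dedifferentiated cells (-0.85). Between those groups it differed by 0.55 (limma adjusted p = 0.16).

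4930567H12Rik/Cdkn1a includes the cyclin-dependent kinase inhibitor p21. It read 10.11, 10.04 and 10.15 in fibroblasts, 8.87, 8.97 and 8.90 in dedifferentiated cells and 8.70, 9.02 and 9.08 in ES cells, without overlap between fibroblasts and the others. It fell by 1.19 log2 units (95% interval -1.42 to -0.95, limma adjusted p = 1.6e-05) and by 1.17 (adjusted p = 1.8e-05), and differed by -0.02 between dedifferentiated and ES cells. The heat-shock pair Hspa1a/Hspa1b fell by 1.17 and 1.26.

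Histone rows rose. Of 32 rows, 25 were higher in dedifferentiated cells and 23 in ES cells, 0 were lower in either, and 0 were called between those groups. The medians were 1.66, 1.54 and 0.17 log2 units. Of 31 histone rows with 1 symbol, 14 were higher and 2 lower in dedifferentiated cells. The 32 rows had 30 profiles and 10 symbol sets, so they are not independent.

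The H4 genes, whose protein pairs with H3 at the core of the nucleosome, had 5 rows. The one of H4c17, H4c2 and 9 more read 9.73, 9.73 and 9.64 in fibroblasts, 11.83, 11.87 and 11.71 in dedifferentiated cells and 11.65, 11.63 and 11.67 in ES cells. It was higher by 2.10 log2 units (95% interval 1.94 to 2.26, limma adjusted p = 3.7e-08) and by 1.95 (adjusted p = 5.4e-08). The 5 rows were higher by 2.01 to 2.10 and by 1.85 to 1.95. The 10 rows of the H3c1/H3c13 genes were higher by 1.65 to 1.81 and by 1.44 to 1.60. By contrast the testis histone H2al1 rows, 11 in number and outside the list, differed by 0.05 to 0.21 log2 units, and 0 were called.

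Zinc finger rows were next. Of 43 rows 19 were higher in dedifferentiated cells and 17 in ES cells, 0 were lower, with medians of 0.89 and 0.44 log2 units. The shares of higher rows in the whole table were 8.59% and 8.16%. Among 395 zinc finger rows with 1 symbol 53 were higher and 7 lower in dedifferentiated cells. Zfp640/2410141K09Rik, zinc finger genes whose promoter windows are 82.0% identical, read 3.00, 3.28 and 3.10 in fibroblasts, 8.83, 8.35 and 8.31 in dedifferentiated cells and 8.11, 8.74 and 8.52 in ES cells. The row was higher by 5.37 log2 units (95% interval 4.94 to 5.80, limma adjusted p = 5.4e-08) and by 5.33 (adjusted p = 5.3e-08). The other row of the pair was higher by 5.54 and 5.33.

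Rex2/Zfp981 with 4 more symbols read 5.57, 5.12 and 5.58, then 10.82, 10.44 and 10.62, then 9.68, 10.29 and 10.10, and was higher by 5.20 and 4.60 log2 units. EU599041/Zfp936/Zfp975 was higher by 4.07 and 3.13. Its dedifferentiated arrays (8.60, 8.23 and 8.46) lay above its ES arrays (7.39, 7.53 and 7.54), by 0.94 (limma adjusted p = 0.00084), short of a call. Zfp990/Zfp534 with 11 more symbols was higher by 3.30 and 3.07.

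Of 100 X-linked rows 5 were higher in dedifferentiated cells, 5.0% against 8.59% of all rows, and 4 in ES cells, 4.0% against 8.16%. The X-linked pair Bex4/Bex1, small adaptor proteins with promoter windows 95.4% identical, read 3.95, 4.20 and 3.71 in fibroblasts, 8.98, 8.71 and 9.09 in dedifferentiated cells and 8.63, 8.72 and 8.55 in ES cells. The row was higher by 4.98 log2 units (95% interval 4.66 to 5.30, limma adjusted p = 1.5e-08) and by 4.68. Mageb16-ps1/Mageb16, of the MAGE family of ubiquitin ligase partners, had 2 rows, higher by 5.20 and 4.70 in dedifferentiated cells and by 5.02 and 4.59 in ES cells. Mnd1-ps/Mnd1, which works in meiotic strand exchange, read 4.38 to 4.53, 7.47 to 7.63 and 7.64 to 7.79, higher by 3.08 and 3.23.

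Small RNAs and their host genes rose as a list. Of 61 rows for snoRNAs, spliceosomal RNAs and their hosts, 53 were higher in dedifferentiated cells and 41 in ES cells, 0 were lower in either, and the medians were 2.48 and 1.89 log2 units. Between dedifferentiated and ES cells 21 were higher, but 0 with the replicate number as a block, 0 without dedifferentiated array 1 or 3, ES array 1 or fibroblast array 3, 1 without ES array 2, 2 without ES array 3, and 2 with centred arrays or a fit of only those groups. The 61 rows had only 30 profiles. Of 77 such rows with 1 symbol, 42 and 29 were higher.

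Rdm1/Rnu2-10 pairs a recombination protein with U2 small nuclear RNA, part of the spliceosome. Its first row read 5.86, 5.50 and 5.83 in fibroblasts, 9.16, 8.68 and 8.88 in dedifferentiated cells and 8.67, 9.03 and 8.09 in ES cells, higher by 3.18 (limma adjusted p = 5.2e-06) and 2.87 log2 units (adjusted p = 1e-05). Dedifferentiated and ES arrays overlapped. The 7 rows were higher by 2.88 to 3.18 and by 2.66 to 2.87, against 1.71 and 2.32 in the row of Rdm1 alone. The 4 rows of the U3 genes Rnu3b4, Rnu3b3, Rnu3b2 and Rnu3b1 shared 1 profile, higher by 2.31 and 1.97. The 9 rows of the U1 genes Rnu1b6, Rnu1b2 and Rnu1b1 were higher by 1.00 to 1.43, all called, and by 0.61 to 0.86 in ES cells, none called.

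Several snoRNA rows lie in genes of ribosomal proteins. Snord68/Rpl13 was higher by 1.80 and 1.42 log2 units, and Snord14a/Rps13 by 1.33 and 1.1. Snora24/Snhg8 was higher by 2.07 and 1.07. Snora28/Eif5 was called in ES cells (1.48) and not in dedifferentiated cells (0.72). The difference between those groups was -0.76 (limma adjusted p = 0.028), under 1 log2 unit.

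A microRNA symbol stood in 61 rows, together with a host or overlapping gene, with another gene, or only with further copies of the microRNA, as in 13 Mir669a rows and 9 Mir467a rows. Of the 61 rows 3 were higher and 1 lower in dedifferentiated cells, 2 and 1 in ES cells. Without dedifferentiated array 2, 12 were higher in dedifferentiated cells, and without ES array 1, ES array 3 or fibroblast array 1, 3 in ES cells. The array reads the precursor or host transcript, not the mature form. Mature sequences from RefSeq were matched for 35 of 65 microRNA genes. Those of 3 of the called rows are given here with the seed, bases 2 to 8, in capitals. No pair of the 5 shares a seed.

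mmu-miR-92a-3p: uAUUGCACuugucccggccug
mmu-miR-92a-1-5p: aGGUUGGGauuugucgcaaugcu
mmu-miR-22-3p: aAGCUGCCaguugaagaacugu
mmu-miR-22-5p: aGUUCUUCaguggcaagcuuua
mmu-miR-1291: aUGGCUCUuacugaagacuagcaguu

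Mir92-1/Mir17hg, the host transcript of the miR-17-92 cluster, read 3.78, 3.40 and 3.74 in fibroblasts, 6.20, 6.14 and 6.53 in dedifferentiated cells and 5.83, 5.85 and 5.87 in ES cells. It was higher by 2.65 (95% interval 2.36 to 2.94, limma adjusted p = 4e-07) and 2.21 log2 units (adjusted p = 1.2e-06). Mir22hg/Mir22 fell by 1.09 and 1.12, from 6.03, 6.07 and 6.12 in fibroblasts to between 4.82 and 5.07 on the other arrays. Mir1291/Snora34, a microRNA inside a snoRNA, was higher by 1.1 in dedifferentiated cells and by 1.00 in ES cells, the latter not called. Mir675/Supt6 joins symbols on different chromosomes. It read 5.86, 5.70 and 5.92, then 9.30, 9.34 and 9.29, then 9.38, 9.31 and 9.60. It was higher by 3.48 and 3.60, whereas the row of Supt6 alone, a transcription elongation factor, differed by 0.83 and 0.52.

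Most of the rows called between dedifferentiated and ES cells belonged to a pair of repeated families. Of the 72 higher rows, 35 were Ssty rows and 21 were Snord116l rows. The Ssty genes, spermatid genes in many copies on the Y chromosome, had 45 rows in 3 symbol sets. Of these, 44 were higher in dedifferentiated cells and 11 in ES cells than in fibroblasts. On the dedifferentiated arrays 35 exceeded ES cells. In each comparison the arrays of the groups did not overlap in any of the 45 rows, against 27.3% of all rows without overlap between dedifferentiated and ES cells. The rows carry overlapping sets of symbols, so they are not 45 independent measurements.

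The Ssty2/Gm20917 row with 10 more symbols read 3.37, 3.52 and 3.34 in fibroblasts, 7.14, 6.04 and 6.92 in dedifferentiated cells and 4.81, 5.23 and 4.71 in ES cells. The order was the same on every array: fibroblasts lowest, ES cells between, dedifferentiated cells highest. The dedifferentiated arrays were higher than the ES arrays by 1.78 log2 units (95% interval 1.18 to 2.38, limma adjusted p = 0.0034). Dedifferentiated array 2 was the lowest of its group, as it was in the family medians: 5.60, 4.62 and 5.73 for dedifferentiated arrays 1 to 3, 3.99, 4.12 and 3.85 for ES arrays and 3.13, 3.39 and 3.13 for fibroblasts. The 11 calls of ES cells against fibroblasts were 5 without ES array 2 or fibroblast array 1, 6 without ES array 1 or fibroblast array 3, 7 with the replicate number as a block or with centred arrays, and 17 with array weights. The 35 calls between dedifferentiated and ES cells fell to 18 without dedifferentiated array 1, to 15 without dedifferentiated array 3 and to 23 without ES array 3.

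Of 4 sex-linked genes measured by a row of their own, 3 were called in both comparisons with fibroblasts. Eif2s3y and Uty were higher there, like the Ssty rows, and Xist was lower. None of the 4 was called between dedifferentiated and ES cells. Smaller differences were present there. Uty was higher in dedifferentiated cells by 0.73 and Kdm5d by 0.50 (limma adjusted p = 0.017 and 0.048), without overlap of arrays. For Eif2s3y the difference was 0.33 and for Xist 0.10 (adjusted p = 0.17 and 0.81), with overlap. Eif2s3y, a Y-linked translation factor, read 3.51, 3.69 and 3.45 on the fibroblast arrays, 8.18, 7.95 and 8.13 on the dedifferentiated arrays and 7.47, 7.95 and 7.85 on the ES arrays. Uty, a Y-linked demethylase relative, read 3.52, 4.10 and 3.57, then 6.40, 6.31 and 6.38, then 5.46, 5.81 and 5.63. Xist, the RNA that coats the inactive X, read 7.39, 7.24 and 7.31 in fibroblasts, 3.49, 3.07 and 3.18 in dedifferentiated cells and 3.39, 3.27 and 2.78 in ES cells. Kdm5d, a Y-linked demethylase, was not called: it read 3.08, 2.99 and 3.25 in fibroblasts, 3.66, 3.53 and 4.04 in dedifferentiated cells and 3.25, 3.36 and 3.13 in ES cells. The fibroblast arrays were thus high in Xist and low in Eif2s3y, and the other 6 the reverse. The labels used here give no sex for the cells. Sex of the cells and group cannot be told apart in comparisons with fibroblasts. Of 30 Y-linked rows with 1 symbol, 20 exceeded the ES level in dedifferentiated cells.

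Snord116l2, Snord116l1 and Gm26504, C/D box snoRNA genes of an imprinted locus, had 24 rows with 7 profiles. One read 4.38, 3.49 and 3.90 in fibroblasts, 7.43, 6.71 and 7.31 in dedifferentiated cells and 5.52, 6.21 and 6.24 in ES cells. It was higher by 3.23 in dedifferentiated cells (limma adjusted p = 2e-05), by 2.07 in ES cells (adjusted p = 0.00036) and by 1.16 between them (95% interval 0.50 to 1.81, adjusted p = 0.031). The last difference depended on single arrays and on the fit: of 21 calls, 2 were left with each array centred on its median or with only those 2 groups fitted, 0 with the replicate number as a block, 0 without dedifferentiated array 1 or 3, without ES array 1 or 2, or without fibroblast array 3, and 1 without ES array 3. Snurf/Snrpn, the protein-coding imprinted transcript of this region, read 6.23, 6.23 and 6.42, then 8.86, 9.05 and 8.92, then 8.10, 7.89 and 8.0. It was higher by 2.65 and 1.71 log2 units, and by 0.95 between dedifferentiated and ES cells (limma adjusted p = 0.00058), just short of a call.

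**Figure D3:**
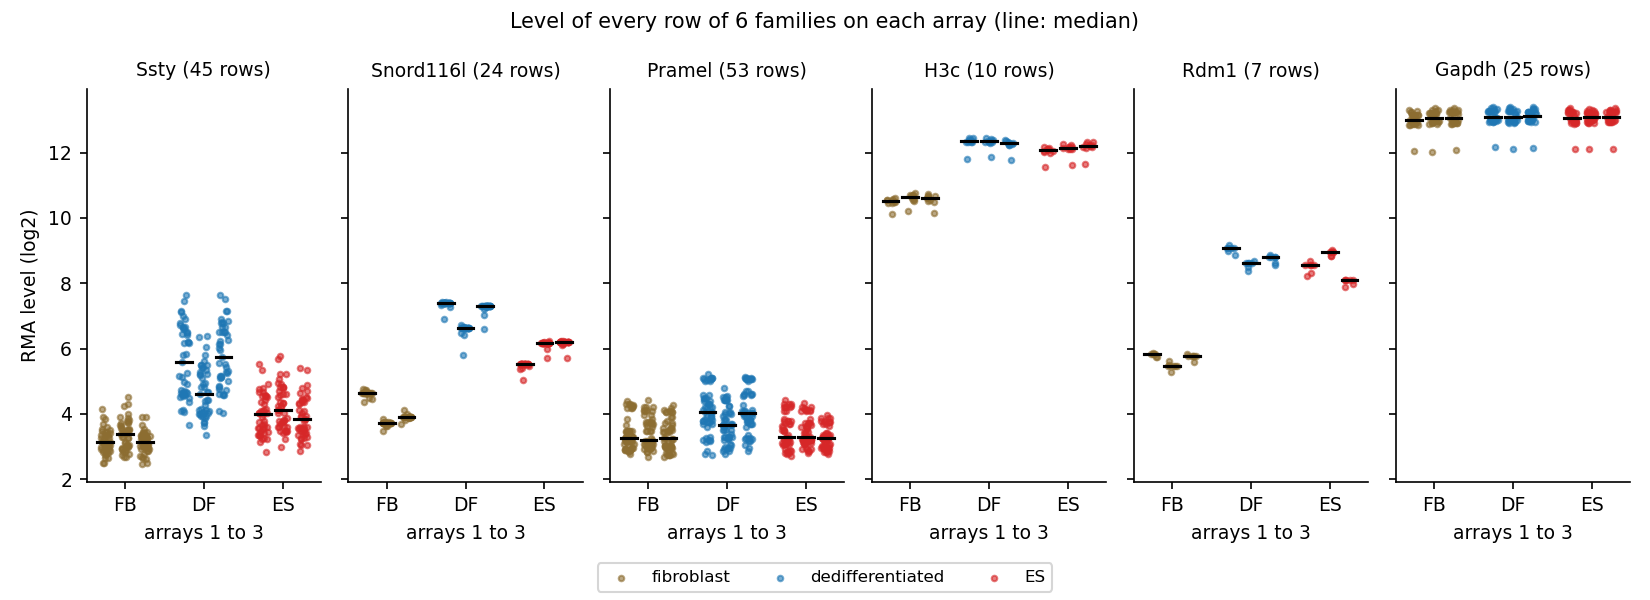
RMA level in log2 of every row of 6 families (points) on fibroblast (FB), dedifferentiated (DF) and ES arrays 1 to 3, with the median as a line. Ssty and Snord116l rows are highest on the dedifferentiated arrays, H3c and Rdm1 rows are raised in both other groups, and the 25 Gapdh rows differ by at most 0.09.

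Homeobox genes in small clusters gave 3 further rows. Cphx3/Cphx2/Cphx1, homeobox genes known from the early embryo, had 3 rows with 2 profiles. One read 4.43, 5.05 and 4.19 in fibroblasts, 6.50, 6.86 and 6.46 in dedifferentiated cells and 5.35, 5.16 and 4.97 in ES cells. It was higher in dedifferentiated cells by 2.05 log2 units against fibroblasts (limma adjusted p = 5.9e-05) and by 1.44 against ES cells (95% interval 0.95 to 1.93, adjusted p = 0.0036). ES cells and fibroblasts differed by 0.60 (adjusted p = 0.056), with 1 fibroblast array above 1 ES array. Its neighbour family Duxbl2/Duxbl1 was higher by 2.45 to 2.70 and by 1.89 to 2.06, with 0.56 to 0.64 between dedifferentiated and ES cells, not called.

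The other higher rows were named by gene models almost throughout. Of the sets led by Gm17026/Gm10375, 6 rows were called, by 1.04 to 1.69 log2 units, and 6 rows of the set led by Gm21119/Gm3643 by 1.02 to 1.26. The remaining row, of Csprs/Gm7592 and 3 more symbols, read 5.72, 5.78 and 5.98 in fibroblasts, 5.88, 5.13 and 6.33 in dedifferentiated cells and 4.41, 4.99 and 4.34 in ES cells. Here the dedifferentiated arrays overlapped the fibroblasts, with a difference of -0.05, and lay above the ES arrays by 1.20.

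The 4 rows lower in dedifferentiated than in ES cells were 3 rows of Gm9222/2410018L13Rik, 1 of them with Hpcal1, and Wdr77/Ovgp1. A Gm9222/2410018L13Rik row read 5.40, 5.36 and 5.47 in fibroblasts, 7.23, 7.02 and 7.09 in dedifferentiated cells and 8.22, 8.59 and 8.68 in ES cells. The dedifferentiated arrays lay between the others, lower than ES cells by 1.39 log2 units (difference -1.39, limma adjusted p = 0.00039). Wdr77/Ovgp1, with an oviduct glycoprotein, read 3.49, 4.04 and 4.18 in dedifferentiated cells and 4.67, 5.21 and 5.13 in ES cells (difference -1.1, limma adjusted p = 0.014).

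The Pramel genes, PRAME-like genes of the germ line and early embryo, made up 53 of the 74 rows of the preimplantation and germline list, and 0 of the 74 rows were called in any comparison (without dedifferentiated array 2, 7 were higher than in fibroblasts and 9 higher than in ES cells, and without fibroblast array 1 or 2, 1 was higher than in fibroblasts). The Pramel medians were 3.28, 3.19 and 3.27 on the fibroblast arrays, 4.06, 3.66 and 4.04 on the dedifferentiated arrays and 3.31, 3.31 and 3.26 on the ES arrays. The median difference was 0.68 against fibroblasts and 0.67 against ES cells, and ES cells differed from fibroblasts by -0.01. The arrays did not overlap in 41 of the 53 rows against fibroblasts, in 38 between dedifferentiated and ES cells and in 6 between ES cells and fibroblasts, where 47.4%, 27.3% and 44.6% of all rows did not. Again dedifferentiated array 2 was the lowest of its group, and without it 5 Pramel rows were called against fibroblasts and 9 against ES cells.

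Differences between dedifferentiated and ES cells went with the number of genes that share a row. The median difference was 0.03 log2 units over 717 rows with 2 symbols, 0.08 over 444 with 3 or 4, 0.18 over 295 with 5 to 9, and 0.24 over 157 with 10 or more. The dedifferentiated mean was the higher one in 435 of 717, 323 of 444, 257 of 295 and 144 of 157 rows. Among rows with no group mean of 6 or more the medians were 0.03, 0.13, 0.27 and 0.31, against -0.01 over 11231 such rows with 1 symbol. Without Ssty, Sly and Snord116l rows they were 0.02, 0.13, 0.22 and 0.28. All of these class medians keep the 53 dim Pramel rows, which had a median of 0.67. Class medians without the Pramel rows were not computed. On the dim rows with 10 or more symbols, the array medians were 3.64, 3.24 and 3.65 for dedifferentiated arrays, 3.18, 3.14 and 3.11 for ES arrays and 3.09, 3.12 and 3.03 for fibroblasts. Dedifferentiated arrays 1 and 3 stood above the other 7. These shifts lie below 1 log2 unit.

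**Figure D4:**
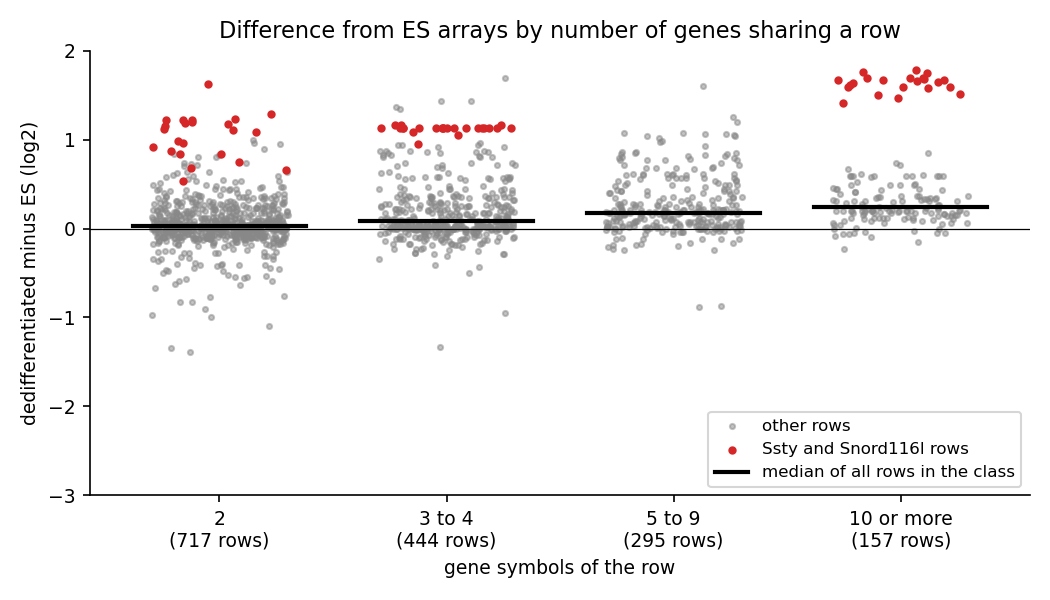
Difference between dedifferentiated and ES cells in log2 (vertical axis) for each of the 1613 rows, in 4 classes by the number of gene symbols (horizontal axis). Black lines are class medians, 0.03, 0.08, 0.18 and 0.24, and Ssty and Snord116l rows are red.

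Many families had few calls or none. The 25 Gapdh rows, with a glycolytic enzyme and its copies, differed by 0.03 to 0.09, 0.01 to 0.06 and 0.00 to 0.05 log2 units in the 3 comparisons. Of 250 ribosomal protein and translation factor rows 4 were higher in dedifferentiated cells and 5 in ES cells, with medians of 0.41 and 0.42. The latter count was 2 with centred arrays, 3 without ES array 2 or fibroblast array 2 and 9 without fibroblast array 1. Higher rows made up 8.59% and 8.16% of the whole table in these comparisons. None of 34 Hmgb rows was called, though the chromatin proteins' differences from fibroblasts ran from 0.29 to 0.89. Actg1/Actb rows read 0.20 to 0.24 below fibroblasts in dedifferentiated cells and 0.54 to 0.60 below in ES cells. Of 86 rows of abundant metabolic, chaperone and cytoskeletal genes, 6 were higher and 1 lower in both comparisons, with 3 higher in ES cells after centring.

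Receptor and immune repertoires were mostly dim. Of 171 olfactory, vomeronasal and taste receptor rows 1 was called, Olfr56/Ifi47 as given above. None of 70 immunoglobulin, T cell and NK cell receptor rows and none of 10 cytokine and chemokine rows was called. Of 27 xenobiotic and steroid metabolism rows, Cyp4v3/Klkb1 fell by 1.42 and 1.36 log2 units, and Mup-ps15/Mup16 with 3 more symbols was higher by 1.20 in dedifferentiated cells. Of 14 rows of secreted and placental families, Prl2c4/Prl2c3/Prl2c2 was higher by 1.59 in dedifferentiated cells, and 0.76 in ES cells was not called. Of 19 keratin and cornified envelope rows, Sprr2a2/Sprr2a3/Sprr2b/Sprr2a1 was higher by 1.31 and 1.13. AF357355/Rian, of an imprinted noncoding cluster, fell by 1.15 in ES cells and differed by -0.98 in dedifferentiated cells, not called. Leaving out single arrays moved the counts of the lists in this paragraph to at most 2 rows per list and direction. The remaining 565 rows were in no list, and of these 85 were higher and 36 lower in dedifferentiated cells. Among all 1613 member rows 241 were higher (14.9%) and 56 lower (3.47%) in this comparison. Of all 35557 rows, 8.59% were higher and 6.58% lower. Whether rows in no list differ from the others was not tested.

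Position was described from the RefSeq annotation. The genes of 178 sets (536 rows) lay on different chromosomes, those of 114 sets lay on 1 chromosome farther than 1 Mb apart, those of 379 sets within 1 Mb without overlap, and those of 110 sets overlapped. Of the 687 rows of neighbours within 1 Mb, 37 were lower in dedifferentiated cells, 5.39% against 6.58% of all rows. The 76 rows called between dedifferentiated and ES cells came from neighbours (44 rows) and from genes farther apart on 1 chromosome (32 rows), and 0 from overlapping genes or different chromosomes. By name, 695 rows had 1 stem shared by 2 or more of their symbols, with 74 higher (10.6%) and 25 lower (3.6%) in dedifferentiated cells. In 435 rows only 1 symbol had a stem, with 84 higher (19.3%) and 11 lower (2.53%). Another 280 rows had 2 or more stems, with 29 higher (10.4%) and 8 lower (2.86%). No stem was found in 203 rows, with 54 higher (26.6%) and 12 lower (5.91%). Over all rows 8.59% were higher and 6.58% lower.

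Most rows of 1 symbol set read alike. In 261 sets with several profiles the range of the differences within a set had a median of 0.09, 0.07 and 0.05 log2 units in the 3 comparisons, and no set had rows called in opposite directions. The exceptions included the Ssty genes: between dedifferentiated cells and fibroblasts the range was over 1 log2 unit in 5 sets, among them Gm20831/Ssty1 (0.81 to 3.10 over 23 rows), Jpt2/Gm2956 with 11 more symbols (0.72 to 2.30) and Gtf3c2/Mpv17 (-0.05 to 1.17). Genes with a row of their own allowed a further check. Of 2297 pairs of a shared row and a single gene's row, for 627 genes, the shared row was called in 279 pairs between dedifferentiated cells and fibroblasts. The gene's own row was called in the same direction in 102 of these, was not called in 166 and was called in the opposite direction in 11. For ES cells against fibroblasts the counts were 111, 151 and 9 of 271. Which part of a gene each row reads was not analysed here.

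Zfp640, Bex4 and Bex1 moved the same way in own and shared rows: Zfp640 alone was higher by 4.31 to 5.10, Bex1 alone was higher by 6.66 and Bex4 alone by 5.15 log2 units, against 4.98 in the row that the Bex genes share. Oas1a alone fell by 1.40, against 2.44 in the row with Oas1g. Sp100, a nuclear body protein, fell by 4.67 in its own row and by 2.10 in the Sp100/Gm7592 row. Some of the largest falls had no counterpart: Gal3st2c alone differed by 0.13, C1ra alone by -0.70 and Gm1966, a symbol of the Gvin1 rows, by -0.37, none of them called. Top2a, the topoisomerase of dividing cells, went against its shared row: alone it was higher by 1.47, while the rows Top2a/Hibadh fell by 1.30 and 1.11. Hibadh, a mitochondrial dehydrogenase, differed by -0.61 in a row of its own. Rbmx alone fell by 1.57, while 2 of the 3 Rbmxl1/Rbmx rows were higher, by 1.09 and 1.12. H2bc4 alone fell by 2.46, while the 7 H2b rows that include it were higher by 1.44 to 1.71.

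**Figure D5:**
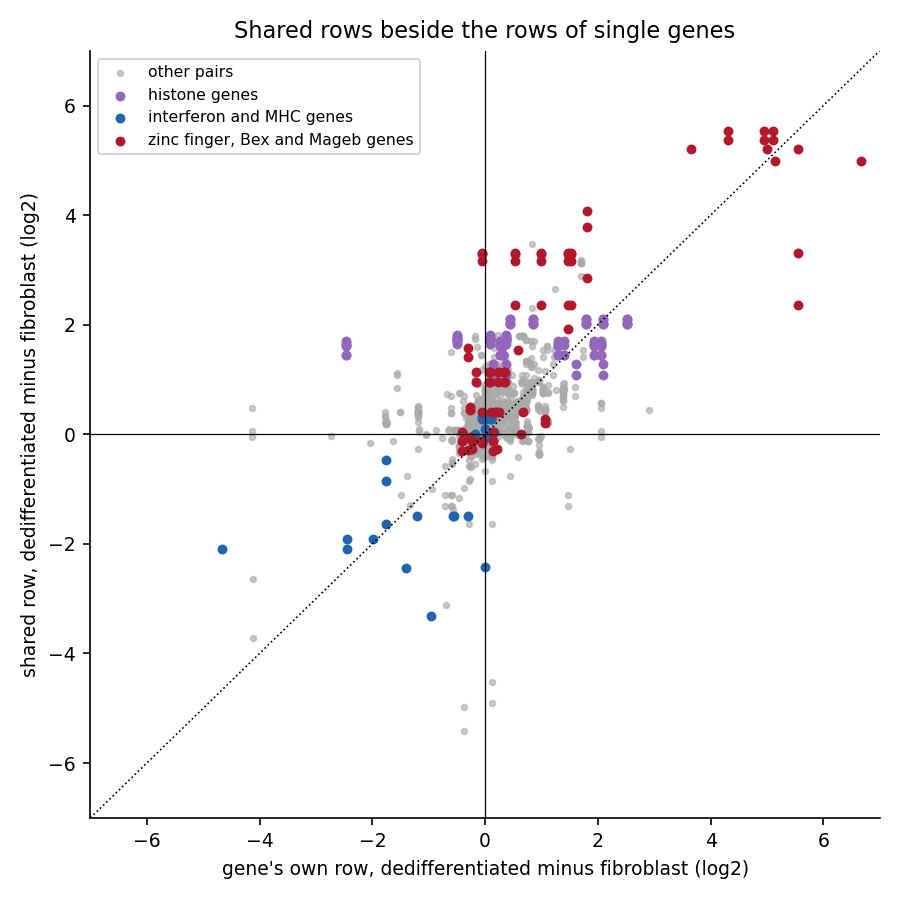
Difference between dedifferentiated cells and fibroblasts in log2 for 2297 pairs, in the row of a single gene (horizontal axis) and in a row that it shares (vertical axis). On the dotted line both are equal, and the points of H2bc4 (purple, at -2.46) lie left of 0 while their shared rows lie above it.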

How the data were processed

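RNA from 9 cell samples was hybridised to Affymetrix arrays of 1 colour. The deposited table holds log2 levels of transcript clusters, made by the authors with RMA in Affymetrix Expression Console 1.1, per the submitters' processing notes. RMA corrects the background, normalises quantiles and summarises probes; the annotation build is not given in the sources used here. No scanner files were used here, so signal over background is unknown, and dim rows are bounded by the array's floor. The number of arrays, 3 per group, limits precision. In 789 rows, 27 of them member rows, the 3 dedifferentiated values were identical. These numbers were 363 and 14 for fibroblasts and 402 and 28 for ES cells. Such ties make the spread of a row look smaller, and their origin was not tested.

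All 35557 rows were fitted with limma 3.58.1 (lmFit, eBayes, R 4.3.3) over the 3 groups together, with Benjamini-Hochberg adjustment over all rows. Rows were called at an adjusted p under 0.05 where the group means differed by 1 log2 unit or more. On simulated data with the same rows, 64, 62 and 63 of 67 rows changed by 1.5 log2 units were called (dedifferentiated against fibroblast, ES against fibroblast, dedifferentiated against ES), and 0 of 67 changed by 0.5.

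Gene symbols came from GEO's platform annotation, which can be old; 1999 of 2016 genes matched RefSeq by Entrez ID. 8 rows that repeat 1 symbol only were left out. Rows were grouped by shared symbol stem and into 21 lists. The members and lists were chosen with earlier results of these data known. Named rows are, per comparison and direction, the 8 with the largest change among called rows with an established symbol and without overlap of arrays, 2 called rows per list and direction, and rows with Cdkn1a, H19 or Ddx3y (57 rows in all; no member row carried H19 or Ddx3y, which are not analysed here). Other names were chosen after the values were seen. Motifs were searched on both strands of RefSeq promoter windows (GRCm38.p6). Protein likeness within a row was not computed. Alternatives covered scaling, filters, thresholds, variance models, array weights, the replicate block and leaving out each array. Counting identical profiles once and leaving out Y-linked rows were added after the data were seen.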

Additional observations from a re-analysis of the deposited data

Results flagged for a closer look

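Ubap1/Cep41 was singled out because its group means lay on opposite sides of the fibroblast mean. Every dedifferentiated array lay below, and every ES array above, all fibroblast arrays. The row read 9.18, 9.18 and 9.22 in fibroblasts, 8.91, 8.76 and 8.73 in dedifferentiated cells and 9.35, 9.31 and 9.44 in ES cells. The differences from fibroblasts were -0.40 and 0.18 log2 units, and dedifferentiated minus ES was -0.57 (limma adjusted p = 0.0021), under the 1 log2 unit that a call needs.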

How the results depend on the processing

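No count of calls or named row reversed under the alternatives run. Small medians did change sign with centred arrays or renewed quantile normalisation: those of all rows (below) and those, between 0.01 and 0.11 as reported, of the microRNA, olfactory, xenobiotic, immunoglobulin, protease, secreted, keratin and extracellular matrix lists. Of the comparisons of named rows with alternatives, 5116 kept their direction and side of the threshold, 53 lost their call and 18 gained one. Leaving out each array gave 237 to 277 rows higher and 54 to 57 lower for dedifferentiated against fibroblast (241 and 56 as reported), 150 to 169 and 60 to 65 for ES against fibroblast (165 and 63), and 20 to 107 and 4 to 8 for dedifferentiated against ES (72 and 4). For the last, higher rows numbered 36 with only the 2 groups fitted, 38 among rows above the median level, 43 among rows with a group mean of at least 6, and 37 without Y-linked rows. Requiring 1.5 log2 units left 157 and 106 higher in the comparisons with fibroblasts, and 22 higher and 0 lower between dedifferentiated and ES cells. With no minimum change the counts were 786 and 129, 551 and 150, and 239 and 37. Rows with at least 2 established symbols gave 127 higher for dedifferentiated against fibroblast, 104 and 41 for ES against fibroblast, and 24 and 1 for dedifferentiated against ES. Some of these alternatives use fewer rows, another threshold or a fit of only 2 groups. Why the counts moved was not tested. Centring each array on its median moved the median difference of all rows from 0.038 to -0.082 and of member rows from 0.29 to 0.169 (dedifferentiated against fibroblast), and from 0.05 to -0.069 and from 0.133 to 0.014 (ES against fibroblast), and the counts became 218 and 60, 146 and 69, and 53 and 4. Samples share only a replicate number: the correlations of deviations of same-numbered arrays ran from -0.174 to 0.17, so the numbers were not taken as pairs. With the replicate block the counts were 241 and 56, 161 and 63, and 43 and 4. Levels near the array's floor limit what can be read from rows such as Pramel.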
